A study of Mus musculus with 4 samples.

Results

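The 8 genes described here encode the ephrin-B ligands (Efnb1, Efnb2, Efnb3) and the EphB receptors (Ephb1, Ephb2, Ephb3, Ephb4, Ephb6). They were taken by symbol from the feature tables of 4 single-cell RNA libraries of embryonic mouse thymus. All 8 were present, out of 27998 genes. For each, the UMIs (unique molecular identifiers, 1 per captured transcript) were added up within a cell class and scaled to the class total as CPM (counts-per-million), the unit used for every level given here. The share of cells with at least 1 UMI was also counted. In GRCm38 (GENCODE M21 annotation) the ligand genes lie on 3 chromosomes, Efnb1 at chrX:99136130-99148991, Efnb2 at chr8:8617434-8661242 and Efnb3 at chr11:69554092-69560205. The receptor genes are Ephb1 at chr9:101922128-102354693, Ephb2 at chr4:136647539-136835988, Ephb3 at chr16:21204755-21223305, Ephb4 at chr5:137350109-137378669 and Ephb6 at chr6:41605482-41620509.

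Ephrin-B ligands span the membrane, so they meet EphB receptors only where cells touch. Binding starts a forward signal through the receptor's kinase and a reverse signal through the ligand's intracellular tail, and the usual outcome is repulsion, sorting or boundary formation between cells. Ephrin-B2 is a classical label of arterial endothelium and EphB4 of venous endothelium. In the thymus, ephrin-B2 on neural crest-derived cells is known to be needed for the organ to move to its place, and EphB2 and EphB3 help to organise the epithelium.

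The thymuses were from embryos of day 13 to 13.5, with 1 library for each condition. The groups were Tbx1+/+ embryos whose dams were given the ethanol carrier, Tbx1neo2/neo2 embryos with carrier, Tbx1neo2/neo2 embryos with minoxidil and Tbx1neo2/neo2 embryos with prostaglandin E2 (PGE2, labelled PGE.2). In the hypomorphic neo2 allele, an intron of Tbx1 holds an inserted neomycin cassette that lowers the transcript. The embryos came from crosses of Tbx1+/neo2 mice injected during pregnancy. Lobes of hypoplastic thymuses were pooled, and the number of embryos is not given in the sources used here, so neither spread between embryos nor spread between libraries could be measured. Each interval below is an exact Poisson or binomial 95% interval and covers counting error only. A difference is called where it reached 1.5-fold and the intervals of the compared libraries did not overlap, among genes with at least 20 UMIs in the compared libraries together. No p-value is given, because cells are not replicates.

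After filtering, the libraries held 11474 (Tbx1+/+ carrier), 10683 (Tbx1neo2/neo2 carrier), 3201 (minoxidil) and 4152 cells (PGE2), with median depths of 21125, 14108, 41084 and 34790 UMIs a cell. Between 25 and 63 cells of a library had a barcode found in another library too. The classes were recognised from markers of mesenchymal, epithelial, hematopoietic and endothelial cells. Tbx1 itself stood at 2.31, 1.18, 1.46 and 0.325 CPM in epithelial cells, in the same order of libraries, and at 3.32, 2.12, 3.64 and 2.05 in mesenchymal cells. In endothelial cells it stood at 11.7, 16.9, 19.1 and 24.9, which is higher in the libraries labelled Tbx1neo2/neo2 and goes against the label of a lowered allele. The libraries are therefore named by their labels throughout. In epithelial cells the intervals of the 3 Tbx1neo2/neo2 libraries all lay below that of Tbx1+/+ carrier. Whether the counted 3′ ends of Tbx1 lie beyond the cassette was not tested.

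For each of the 8 genes, the class with the highest level was the same in all 4 libraries. The share of all genes for which this holds, or whose class intervals lie apart as below, was not counted. Efnb1, Efnb3, Ephb2 and Ephb3 were highest in mesenchymal cells, Efnb2, Ephb1 and Ephb4 in endothelial cells, and Ephb6 in epithelial cells. The interval of the highest class did not overlap that of the next class in any gene and library, with 1 exception. This was Ephb6 in the Tbx1neo2/neo2 carrier library, where the epithelial interval met the hematopoietic one. Without the 6% of cells with the highest doublet scores in each library, which left out 34.3% of minoxidil endothelial cells, Efnb2 with minoxidil stood at 84.0 (75.3 to 93.4) in endothelial and 83.4 (81.0 to 85.8) in epithelial cells, so these intervals overlapped too.

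**Figure D1:**
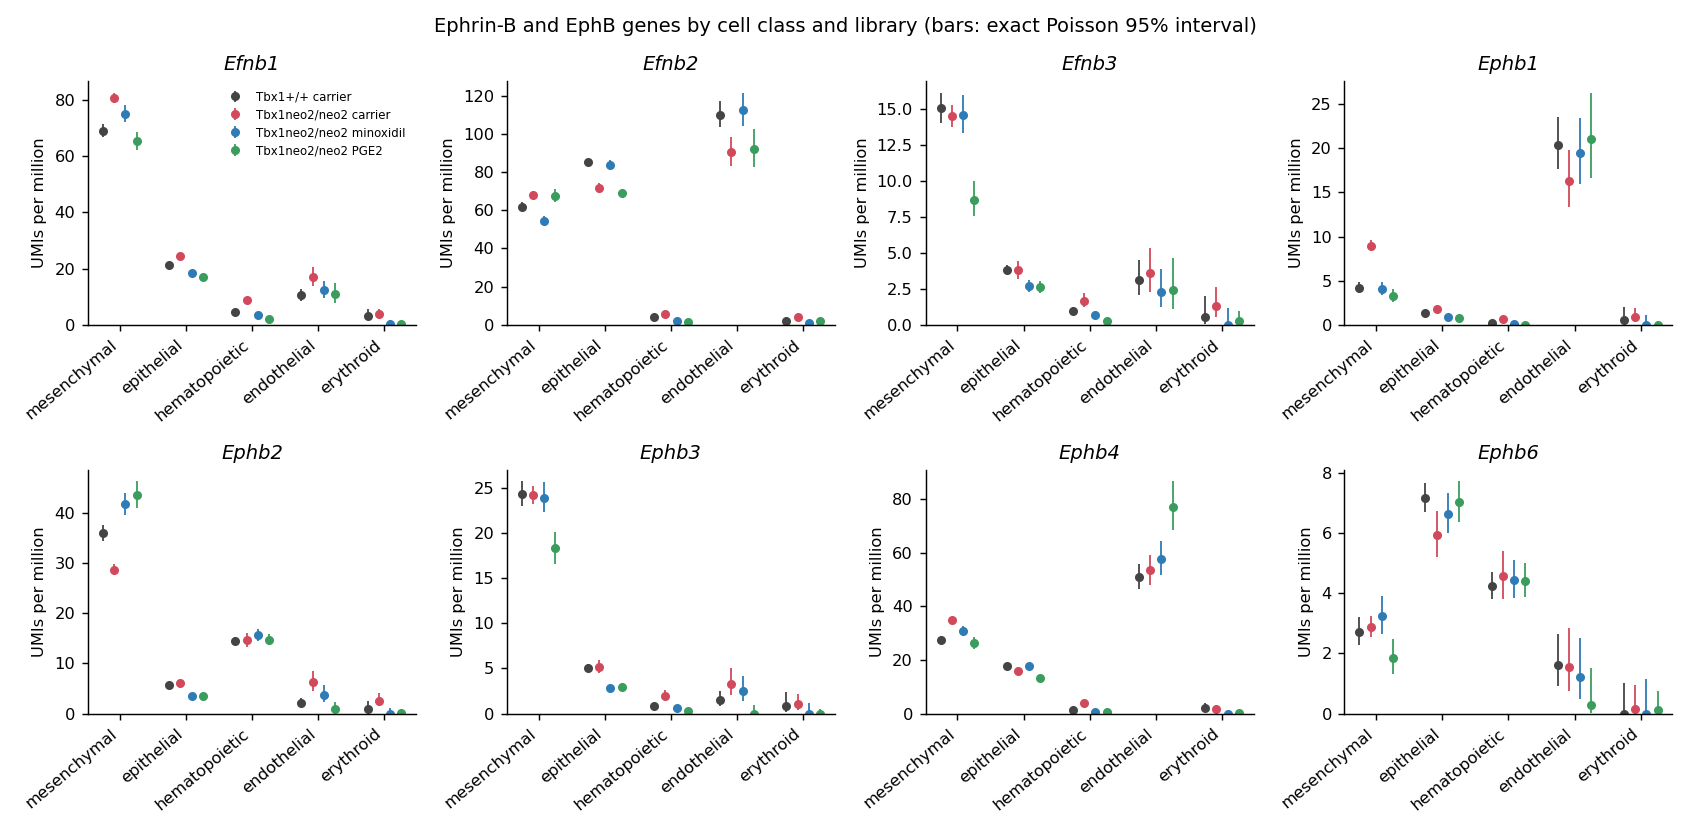
Level of each of the 8 genes (vertical axis, CPM, a scale of its own in each panel) in 5 cell classes, with 1 point per library and bars for the exact Poisson 95% interval. The class with the highest point is the same in all 4 libraries for every gene, and the points in erythroid cells lie at 4.36 or below.

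Among the ligands, Efnb1, an X-linked gene whose human counterpart is mutated in craniofrontonasal syndrome, was a mesenchymal transcript. It stood at 69.1 CPM (66.8 to 71.4) in Tbx1+/+ carrier, 80.7 (78.9 to 82.6) in Tbx1neo2/neo2 carrier mesenchymal cells. Minoxidil gave 75.0 (72.1 to 78.1), and PGE2 gave 65.3 (62.1 to 68.7). Epithelial cells held 21.3, 24.4, 18.5 and 16.9, and endothelial cells 10.5, 16.9, 12.2 and 10.8. At least 1 UMI of Efnb1 was found in 60.5%, 57.1%, 76.9% and 66.0% of mesenchymal cells. Erythroid cells, which should lack the gene, gave 2.08%, 3.24%, 0.694% and 0.583%. Median depth was 14273 and 17713 UMIs a cell in the erythroid clusters and 11436 to 22434.5 in the mesenchymal ones. However, 7 erythroid marker genes took 804217, 796100, 830427 and 883757 CPM of the erythroid UMIs. A small part of that depth was thus left for other genes, also after thinning. Erythroid levels and shares, here and below, are therefore not a background of matched depth. These shares move with depth, and after each cell was thinned to 5000 UMIs the mesenchymal shares lay between 29.1% and 31.5%.

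Efnb2 was found in 3 of the 4 compared classes at high level. Endothelial cells held 110 CPM (103 to 117) in Tbx1+/+ carrier, 90.4 (83.2 to 98.1) in Tbx1neo2/neo2 carrier. Minoxidil gave 112 (104 to 122), and PGE2 gave 92.1 (82.6 to 102). Epithelial cells followed at 85.3, 71.8, 83.7 and 68.8, and mesenchymal cells at 61.9, 68.1, 54.5 and 67.5. Hematopoietic cells held 4.18, 5.69, 1.91 and 1.40, close to the 2.20, 4.36, 0.933 and 1.99 of erythroid cells. Of epithelial cells, 83.6%, 74.2%, 93.3% and 87.6% had an Efnb2 UMI, against 2.92%, 3.24%, 2.08% and 1.46% of erythroid cells. After thinning the epithelial shares were 27.3% to 32.7%.

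Efnb3 is a ligand best known from neurons. It stood at 15.04, 14.5, 14.6 and 8.69 CPM in mesenchymal cells. Within the mesenchyme it was highest in cluster 14, led by the mesothelial genes Upk3b and Mgp, at 42.8, 23.1, 44.8 and 27.6. No other mesenchymal cluster passed 29.1.

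Among the receptors, Ephb4 and Ephb1 were highest in endothelium. Ephb4 stood at 51.1 (46.6 to 55.9), 53.5 (48.0 to 59.4), 57.7 (51.7 to 64.3) and 77.3 (68.6 to 86.8) CPM in endothelial cells, in the order Tbx1+/+ carrier, Tbx1neo2/neo2 carrier, minoxidil and PGE2. In mesenchymal cells it stood at 27.5, 34.9, 30.7 and 26.3 and in epithelial cells at 17.6, 16.04, 17.7 and 13.5. Ephb1 stood at 20.4, 16.3, 19.4 and 21.1 in endothelial cells against 4.198, 8.95, 4.07 and 3.24 in mesenchymal cells. The endothelial level of Ephb1 was thus 486%, 182%, 478% and 651% of the mesenchymal level of the same library.

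Ephb2 and Ephb3 had their highest levels in mesenchymal cells. Ephb2 stood there at 35.9, 28.7, 41.7 and 43.5 CPM, and Ephb3 at 24.3, 24.2, 23.9 and 18.3. Ephb2 was also the receptor with the highest level in hematopoietic cells. In hematopoietic cells it stood at 14.5, 14.7, 15.7 and 14.8, with overlapping intervals in all 4 libraries, and in the T-lineage-like cluster (cluster 0, with Cd3g among its leading genes) at 15.8, 16.97, 16.5 and 15.8. Of hematopoietic cells thinned to 5000 UMIs, 6.60%, 5.82%, 4.69% and 6.79% held an Ephb2 UMI, against 0.426%, 0.922%, 0% and 0.297% of erythroid cells. The 0% was 0 of 140 cells, which by a floor of 3 counts allows a share of up to 2.14%. The UMIs of erythroid marker genes given above lower these erythroid shares too.

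Ephb6 codes for a receptor without kinase activity that is known from T cells. It was at 7.17, 5.93, 6.64 and 7.03 CPM in epithelial cells and at 4.24, 4.56, 4.43 and 4.41 in hematopoietic cells. The 4 hematopoietic values lay within each other's intervals. In the T-lineage-like cluster it stood at 4.46, 4.99, 4.69 and 4.69. Erythroid cells gave 0 or 1 UMI of Ephb6 in each library. The parathyroid-like cluster 18, led by Pth and Chga and held by 86 Tbx1+/+ carrier cells, stood at 18.0 CPM of Ephb6. The other libraries had at most 1 cell there, so no comparison was possible.

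The endothelial pattern of Efnb2 and Ephb4 could be set against markers that did not choose these genes. Each endothelial cell was placed by whether it held more UMIs of an arterial list (Gja5, Gja4, Sox17, Hey1, Dll4, Unc5b, Bmx, Nrp1, Jag1) or of a venous list (Nr2f2, Nrp2, Aplnr, Flt4, Vwf). There were 99 arterial and 93 venous cells in Tbx1+/+ carrier, 83 and 118 in Tbx1neo2/neo2 carrier. Minoxidil gave 51 and 37, and PGE2 gave 27 and 57. Between 11 and 42 cells of a library were tied and 28 to 93 lay within 3 UMIs of a tie, so the sides are ends of a range, not types.

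Efnb2 was higher on the arterial side in every library. It stood at 165 (153 to 177) on the arterial and 57.1 (50.4 to 64.5) on the venous side in Tbx1+/+ carrier. The same pair of values was 154 and 48.1 in Tbx1neo2/neo2 carrier. With minoxidil it was 163 and 54.5, and with PGE2 215 and 54.7. No arterial interval overlapped a venous one. Ephb4 leaned to the venous side by less. It was 48.5 (42.3 to 55.4) arterial and 53.8 (47.3 to 61.0) venous in Tbx1+/+ carrier, with overlapping intervals. The intervals were apart in Tbx1neo2/neo2 carrier (44.1 and 61.0), in minoxidil (42.9 and 75.3) and in PGE2 (55.6 and 84.9).

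**Figure D2:**
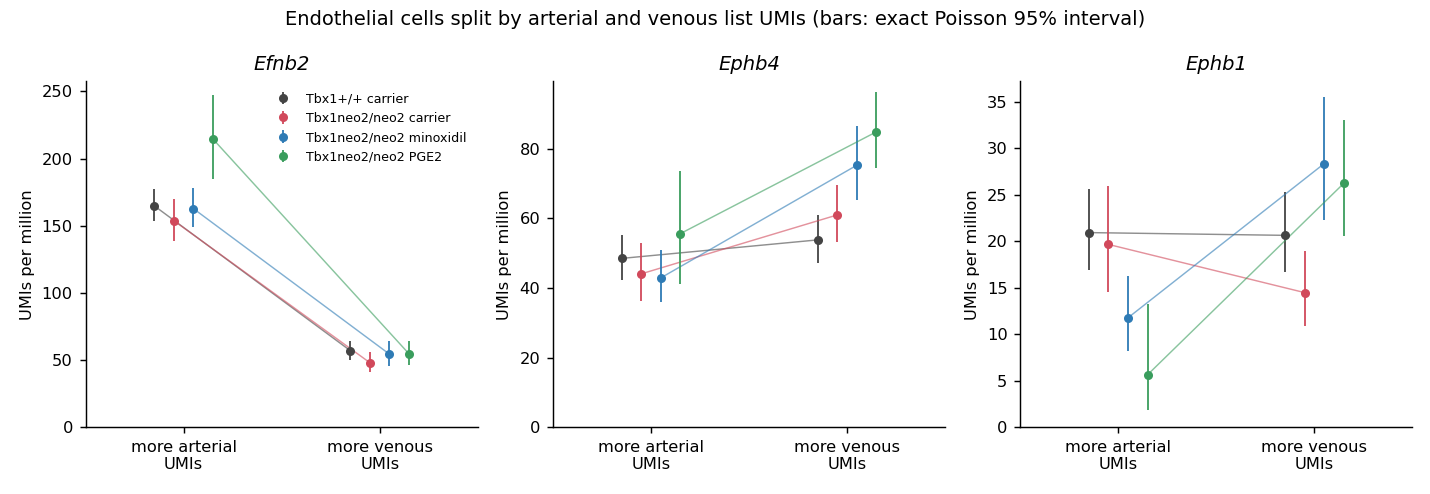
Levels of Efnb2, Ephb4 and Ephb1 (vertical axis, CPM) in endothelial cells with more arterial or more venous list UMIs, with 1 line per library and bars for the exact Poisson 95% interval. Efnb2 falls from 154 to 215 on the arterial side to 48.1 to 57.1 on the venous side in all 4 libraries, and Ephb4 is higher on the venous side by a smaller amount.

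UMIs of both Efnb2 and Ephb4 were found in 128 of 203 endothelial cells of Tbx1+/+ carrier, 108 of 243 of Tbx1neo2/neo2 carrier, 58 of 99 of minoxidil and 47 of 101 of PGE2. Cells with Efnb2 alone numbered 35, 30, 16 and 10, and with Ephb4 alone 14, 27, 4 and 13. Of erythroid cells, at most 2.92% in any library had an Ephb4 UMI. These counts were not thinned for depth, and the part of doublets in them was not tested. Ephb1 had no common side. It was even in Tbx1+/+ carrier (21.0 arterial, 20.7 venous), stood at 19.7 and 14.5 with overlapping intervals in Tbx1neo2/neo2 carrier and leaned venous in minoxidil (11.8 and 28.4) and PGE2 (5.68 and 26.3), the last from 5 UMIs on the arterial side.

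Promoter sequences are shown for these 3 genes because endothelium was their highest class in all 4 libraries. They come from RefSeq (GRCm38.p6), which held 7 of the 8 genes, and are the 250 bases before the gene start, written 5′ to 3′ on the gene's strand. Capitals mark the GC box GGGCGG, the binding motif of Sp-family factors, or its reverse complement CCGCCC. The regions are chr8:8661243-8661492 (minus strand) for Efnb2, chr5:137349859-137350108 (plus strand) for Ephb4 and chr9:102354694-102354943 (minus strand) for Ephb1.
Efnb2: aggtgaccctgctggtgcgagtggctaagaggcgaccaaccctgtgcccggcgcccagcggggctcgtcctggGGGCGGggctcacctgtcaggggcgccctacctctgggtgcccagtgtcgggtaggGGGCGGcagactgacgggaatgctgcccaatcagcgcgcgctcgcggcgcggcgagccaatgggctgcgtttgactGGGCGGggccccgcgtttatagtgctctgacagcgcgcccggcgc
Ephb4: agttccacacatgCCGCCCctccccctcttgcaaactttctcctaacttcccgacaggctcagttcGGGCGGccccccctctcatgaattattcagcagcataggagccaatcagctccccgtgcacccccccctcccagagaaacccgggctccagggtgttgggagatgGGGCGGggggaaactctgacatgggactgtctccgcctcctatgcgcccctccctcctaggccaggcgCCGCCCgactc
Ephb1: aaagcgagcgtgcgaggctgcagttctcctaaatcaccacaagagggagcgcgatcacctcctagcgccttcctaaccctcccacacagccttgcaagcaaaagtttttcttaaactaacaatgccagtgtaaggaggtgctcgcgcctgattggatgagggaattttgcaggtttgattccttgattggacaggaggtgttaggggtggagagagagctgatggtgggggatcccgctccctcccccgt

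The Efnb2 promoter held 3 GC boxes, the Ephb4 promoter 4 and the Ephb1 promoter none of these letters. A GC box on either strand was present in 4 of the 7 promoters (Efnb2, Ephb3, Ephb4 and Ephb6) and in 32.9% of all 27025 promoters of the same length. The 6 bases CCGGAA are 1 form of the site of ETS factors, a family active in endothelium. They were in 2 of the 7 (Ephb2 and Ephb6) and in 12.2% of all promoters, and in none of the 3 endothelial genes. The shorter GGAA, present in each of the 3 sequences above, was not counted over all promoters. These are matches of letters and say nothing of binding. In GENCODE M21 on the same assembly, Ephb4 overlaps the protein-coding gene Zan on the opposite strand and Ephb1 overlaps 9630041A04Rik on the opposite strand.

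The first comparison set the Tbx1neo2/neo2 carrier library against the Tbx1+/+ carrier library. With 1 library of each, the allele and the library cannot be told apart. In mesenchymal cells, 1 of the 8 genes was called between Tbx1neo2/neo2 carrier and Tbx1+/+ carrier. Ephb1 was 2.13-fold higher, at 8.95 CPM (8.36 to 9.57) against 4.198 (3.66 to 4.799). By the same rule 23.9% of the 15976 genes tested were called. Ephb1 then stood at 4.07 with minoxidil and 3.24 with PGE2, that is 2.20-fold and 2.76-fold lower than in Tbx1neo2/neo2 carrier and near the Tbx1+/+ level. With the mesenchymal clusters weighted by their Tbx1+/+ carrier shares, Ephb1 was called neither between the carrier libraries (log2 ratio 0.27) nor with minoxidil (-0.36). Both drug comparisons share the Tbx1neo2/neo2 carrier library.

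In minoxidil against Tbx1neo2/neo2 carrier, Ephb1 was the single gene called of the 8 in mesenchymal cells, where 23.9% of 15748 genes were called. In PGE2 against Tbx1neo2/neo2 carrier 4 of the 8 were called, against 23.7% of 15613 genes. Ephb2 was 1.52-fold higher (43.5 against 28.7). Efnb3 was 1.67-fold lower (8.69 against 14.5), Ephb6 1.58-fold lower (1.83 against 2.89) and Ephb1 lower as given above. Over 11 alternative settings of the processing, the PGE2 call was made in 11 for Ephb1 and 10 for Ephb2. It was made in 7 for Efnb3 and in 6 for Ephb6, which had 43 UMIs with PGE2. Efnb1, Efnb2, Ephb3 and Ephb4 stayed under 1.5-fold in the mesenchyme in all 3 comparisons.

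The mesenchymal cells of the Tbx1neo2/neo2 carrier library stood apart from those of the other libraries. When the libraries were clustered without integration, 5492 of its mesenchymal cells fell into mesenchymal clusters in which that library held at least 99.4% of the mesenchymal cells, and 678 fell into mesenchymal clusters that all 4 libraries shared. Its few remaining mesenchymal cells lay in clusters of another class or of none and were left out of this split. Col2a1, a cartilage collagen, stood at 266 CPM in the former, at 34.4 in the Tbx1neo2/neo2 carrier cells of the shared clusters and at 0.825 in the Tbx1+/+ carrier cells there. Hoxa5, a gene of axial position, stood at 78.4, 32.4 and 7.91. The cells of the shared clusters thus differed between these libraries in both genes. These 2 genes were named after their values were seen. With 1 library of this group, the genotype and the library cannot be told apart for these cells.

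The 8 genes were therefore compared in both kinds of cell. Among cells of the shared clusters, Ephb1 was at 3.93 (Tbx1neo2/neo2 carrier) and 4.18 (Tbx1+/+ carrier) CPM, a 0.940-fold ratio with an interval of the log2 ratio from -0.59 to 0.38. In the cells apart it was at 9.40, 2.25-fold the Tbx1+/+ level. The call for Ephb1 was thus seen in the cells of the clusters held almost wholly by that library and not in the shared clusters.

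Efnb3 was the 1 gene called among cells of the shared clusters, at 9.004 against 14.98, which is 1.66-fold lower. By the same rule 4.59% of 14475 genes were called there, and 27.0% of 15761 genes in the comparison of the cells apart with Tbx1+/+ carrier. In that comparison Ephb1 was the single gene called of the 8. Efnb2 differed in direction between the 2 kinds, at 45.7 in the shared clusters and 70.7 in the cells apart against 62.2 in Tbx1+/+ carrier. Ephb2 was at 37.0 and 27.3 against 36.0. Efnb1 was at 71.1 and 81.1 against 69.1, and Ephb4 at 25.8 and 35.6 against 27.5.

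Within the shared clusters, Efnb3 was 1.63-fold higher with minoxidil than in Tbx1neo2/neo2 carrier (14.6 against 9.004) and was called, where 6.14% of 13932 genes were. None of the 8 was called between PGE2 and Tbx1neo2/neo2 carrier there, where 8.46% of 13547 genes were, and Efnb3 stood at 8.35 against 9.004. Nearest the fold limit was Ephb6, 1.49-fold lower with PGE2 (1.76 against 2.62), with an interval of the log2 ratio from -1.29 to 0.16. Efnb2 came next, 1.47-fold higher with PGE2 (67.4 against 45.7).

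**Figure D3:**
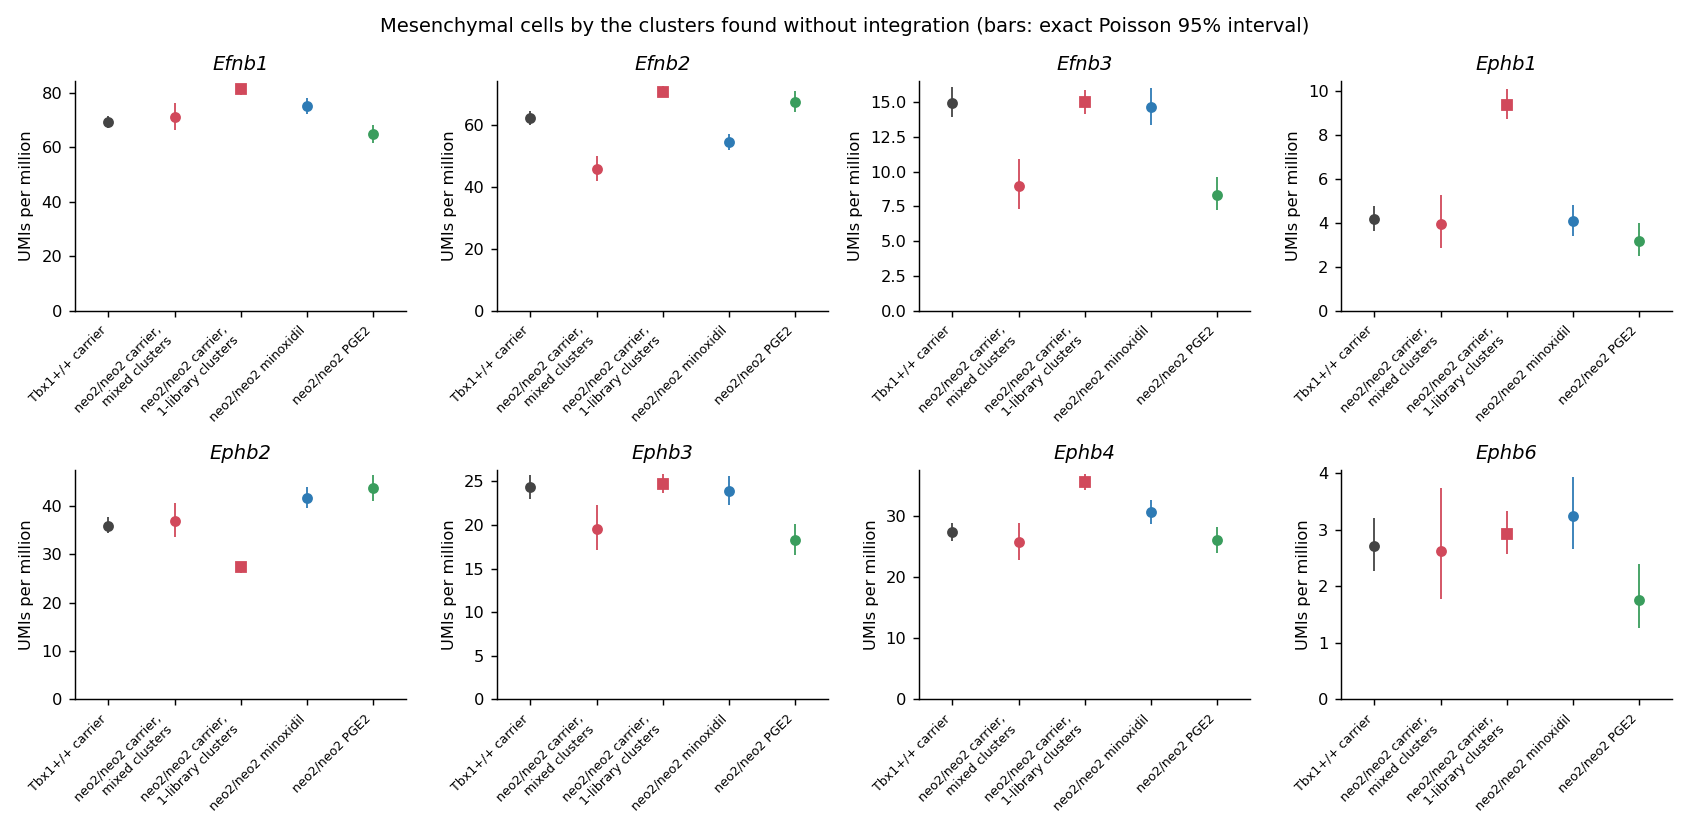
Levels of the 8 genes (vertical axis, CPM, bars for the exact Poisson 95% interval) in mesenchymal cells, split by the clusters found without integration; circles are cells of clusters shared by all 4 libraries and the square is Tbx1neo2/neo2 carrier cells of clusters held almost wholly by that library. Ephb1 is at 9.40 in the square and between 3.18 and 4.18 in the 4 circles.

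After integration the mesenchyme formed 6 clusters, and the Tbx1neo2/neo2 carrier library filled them differently. Clusters 1 (led by Dcn and Ogn) and 2 (led by Col9a3 and Col2a1) held 38.9% and 33.3% of its mesenchymal cells, against 14.3% and 23.5% in Tbx1+/+ carrier. Cluster 9 (led by Ndufa4l2 and Kcnj8) held 4.14% against 27.1%. Leading genes were taken over all libraries together and need not describe each library's cells. Cluster 2 held 668 Tbx1+/+ carrier cells. Of all 2828 Tbx1+/+ carrier mesenchymal cells of the shared clusters, 39 held a Col2a1 UMI. Of the Tbx1neo2/neo2 carrier cells, 2316 of 2433 in cluster 1, 1972 of 2084 in cluster 2, 996 of 1225 in cluster 5 and 197 of 197 in cluster 15 were of the cells apart. Values within these 4 clusters therefore compare cells that lay in different clusters until integration placed them together. In cluster 9 the cells apart were 11 of 259, and in cluster 14 none of 53. The share of all genes called was not counted by cluster.

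Ephb1 was flat in cluster 1, at 14.5, 14.4, 12.8 and 10.996 CPM in the order Tbx1+/+ carrier, Tbx1neo2/neo2 carrier, minoxidil and PGE2. In cluster 5 (led by Mxd3 and Prrx1) it was at 1.09 in Tbx1+/+ carrier and 9.15 in Tbx1neo2/neo2 carrier, an 8.39-fold difference in which 996 of the 1225 Tbx1neo2/neo2 carrier cells were of the cells apart, and at 0.869 and 1.45 with minoxidil and PGE2. In cluster 2 it was lower in Tbx1neo2/neo2 carrier, at 2.33 against 5.96. In cluster 9 it was at 0.226, 0.242 and 0.951, with no UMI in PGE2.

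Ephb2 in cluster 1 stood at 77.5 (Tbx1+/+ carrier), 33.7 (Tbx1neo2/neo2 carrier), 82.6 (minoxidil) and 93.3 (PGE2), with the interval of Tbx1neo2/neo2 carrier apart from the other 3. The same order held in cluster 2, at 48.7, 27.8, 50.9 and 64.5. In clusters 5, 9 and 14 no call was made for Ephb2 between Tbx1neo2/neo2 carrier and Tbx1+/+ carrier.

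Efnb1 in cluster 2 stood at 119, 62.5, 136 and 127. In cluster 5 it was the other way, at 51.6, 78.7, 50.4 and 49.6. Efnb2 was at 63.4, 95.8, 50.3 and 47.4 in cluster 1 and at 82.7, 41.5, 75.7 and 90.6 in cluster 2. In cluster 15, led by the smooth muscle genes Acta2 and Eln, Efnb2 stood at 118, 53.5, 90.7 and 144, with every Tbx1neo2/neo2 carrier cell there of the cells apart. Ephb3 and Ephb6 were not called in any of the 6 clusters in this comparison, and Ephb4 was called in cluster 5 alone, at 34.1 against 22.4.

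**Figure D4:**
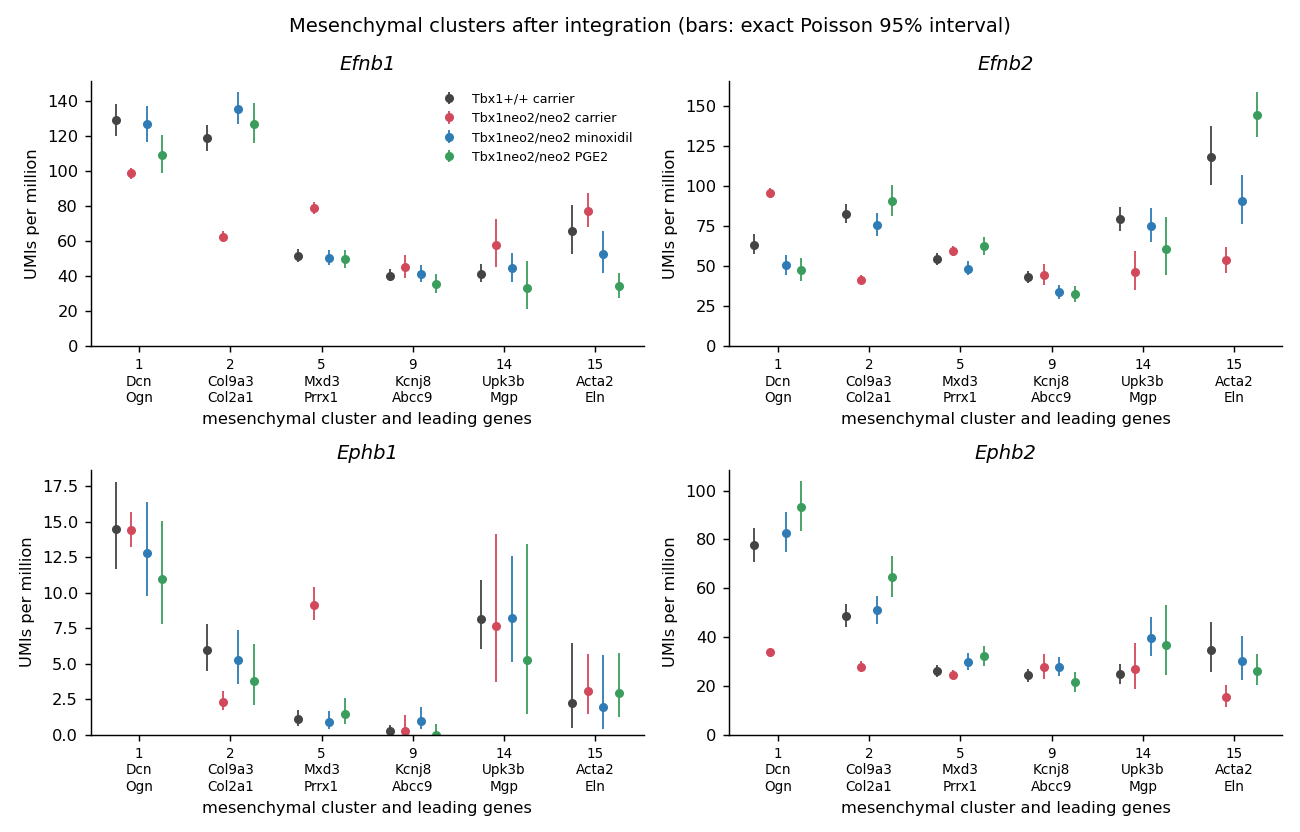
Levels of Efnb1, Efnb2, Ephb1 and Ephb2 (vertical axis, CPM, bars for the exact Poisson 95% interval) in the 6 mesenchymal clusters found after integration, each named by its number and 2 leading genes, with 1 point per library. Leading genes were taken over all libraries together. In clusters 1 and 2 the Tbx1neo2/neo2 carrier point of Ephb2 lies at 33.7 and 27.8, under the other 3 libraries, and in cluster 5 its point of Ephb1 lies at 9.15, above them.

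In epithelial cells none of the 8 genes was called between Tbx1neo2/neo2 carrier and Tbx1+/+ carrier, where 8.37% of 15931 genes were. The largest difference was in Ephb1, at 1.77 against 1.36. Both drugs gave lower values of the same 3 receptors than Tbx1neo2/neo2 carrier. With minoxidil Ephb1 was 2.11-fold lower (0.838 against 1.77), Ephb2 1.81-fold lower (3.42 against 6.18) and Ephb3 1.82-fold lower (2.86 against 5.19), where 9.3% of 15180 genes were called. With PGE2 the folds were 2.27 (0.779), 1.78 (3.47) and 1.80 (2.89), where 9.47% of 15148 genes were called. The lower values lie under Tbx1+/+ carrier too, at 1.36, 5.72 and 5.08. The ligand Efnb2 stayed under 1.5-fold.

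Mesenchymal transcripts were themselves more common among epithelial cells of some libraries. The 8 mesenchymal markers summed to 293, 633, 103 and 119 CPM in epithelial cells, with none at 0, which is 4.15%, 9.46%, 1.25% and 1.41% of their level in mesenchymal cells. Without the 6% of cells with the highest doublet scores in each library, Ephb2 in epithelial cells stood at 4.21, 3.64, 3.18 and 2.74 and no member was called with either drug. Of epithelial cells, 12.5% were left out in Tbx1neo2/neo2 carrier and 5.06% to 6.46% in the other libraries. The part of mesenchymal transcripts in the remaining difference was not tested.

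By epithelial cluster, Ephb2 and Ephb3 leaned to the bipotent TEC-like cluster 7, led by Krt5 and Krt17. Ephb2 stood there at 10.6, 9.12, 4.73 and 6.61 CPM, against 3.36, 6.05, 2.38 and 2.56 in the cortical TEC-like cluster 3, led by Ccl25 and Psmb11. Ephb3 stood at 7.81, 8.82, 3.49 and 4.53 in cluster 7 and at 2.94, 3.71, 2.03 and 2.15 in cluster 3. Efnb2 differed less between them, at 93.1, 80.6, 92.6 and 77.4 in cluster 7 and at 85.9, 74.2, 91.2 and 70.0 in cluster 3.

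In hematopoietic cells 3 of the 8 genes were called higher in Tbx1neo2/neo2 carrier than in Tbx1+/+ carrier, where 13.6% of 14904 genes were called. Efnb1 was at 8.70 against 4.69 CPM, Ephb3 at 1.99 against 0.839 and Ephb4 at 3.87 against 1.22. Without the cells with the highest doublet scores the 3 calls were still made, at lower levels of 4.01 against 2.59, 0.819 against 0.262 and 1.47 against 0.419. After thinning to 5000 UMIs none of the 3 was called. Efnb1 and Ephb3 were also not called when averaging over cells. Nor was Efnb1 with a 2-fold limit, or Ephb3 with a limit of 5% mitochondrial UMIs. With minoxidil 6 were called lower (Efnb1, Efnb2, Efnb3, Ephb1, Ephb3 and Ephb4), where 15.9% of 14250 genes were called. With PGE2 5 were called lower (the same without Ephb1, which was under the count minimum), where 20.6% of 14280 genes were called. Ephb2 and Ephb6, the 2 genes with a clear level in the T lineage, were not called in any of these comparisons.

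Mesenchymal markers moved with these calls. In Tbx1neo2/neo2 carrier the summed markers in hematopoietic cells were 9.14% of their mesenchymal level, and the 6 genes lay between 6.89% (Ephb1) and 11.3% (Efnb3). In PGE2 the markers were at 1.63% and the 6 genes between 0.563% and 3.26%, in minoxidil at 2.69% and 2.18% to 4.70%, and in Tbx1+/+ carrier at 3.74% and 3.45% to 6.79%. Ephb2 lay at 33.9% to 51.2% and Ephb6 at 137% to 241% of the mesenchymal level. The part of transcripts from other cells in the values of the 6 genes was not tested.

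**Figure D5:**
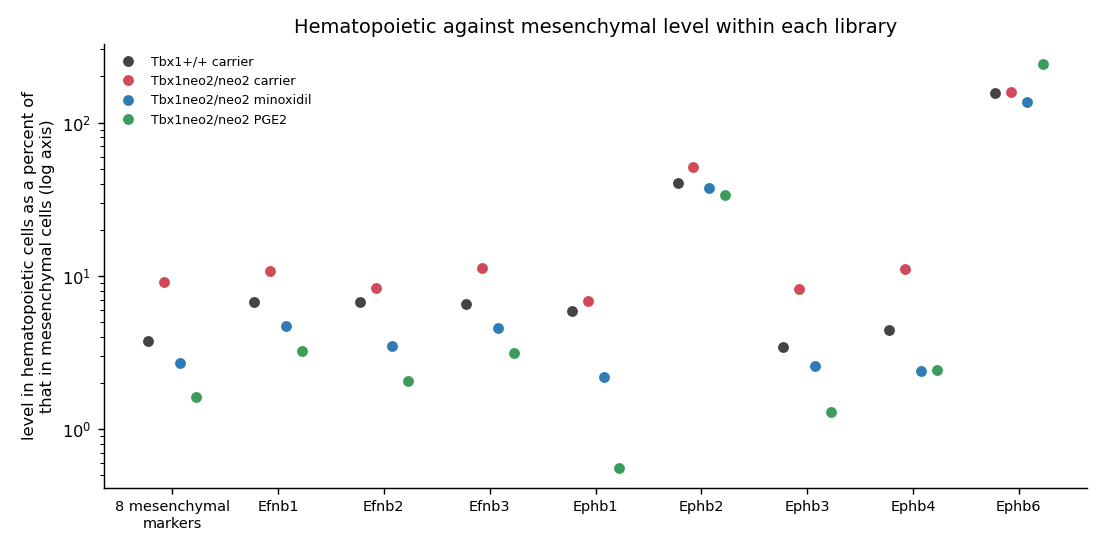
Level in hematopoietic cells as a percent of the level in mesenchymal cells of the same library (vertical log axis) for the sum of 8 mesenchymal markers and for each of the 8 genes, with 1 point per library. Efnb1, Efnb2, Efnb3, Ephb1, Ephb3 and Ephb4 lie at 0.563% to 11.3%, near the markers at 1.63% to 9.14%, while Ephb2 lies at 33.9% or above and Ephb6 at 137% or above.

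In endothelial cells 2 of the 8 genes were called higher in Tbx1neo2/neo2 carrier than in Tbx1+/+ carrier, where 7.6% of 11975 genes were called. They were Efnb1 (16.9 against 10.5) and Ephb2 (6.22 against 2.04). The 8 mesenchymal markers summed to 239, 1118, 523 and 191 CPM in endothelial cells of the 4 libraries, with none at 0. Without the cells with the highest doublet scores, Efnb1 turned to 6.87 against 10.001 and was not called. Ephb2 stood at 1.99 against 0.563, from 9 and 4 UMIs. This was under the minimum of 20 UMIs, so no call could be made for Ephb2. The part of mesenchymal transcripts in the difference was not tested beyond this.

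None of the 8 was called between minoxidil and Tbx1neo2/neo2 carrier in endothelial cells, where 8.64% of 11660 genes were. With PGE2 Ephb2 (0.810 against 6.22) and Ephb3 (no UMI against 21, at least 4.03-fold lower by a floor of 3 counts) were called lower, where 10.3% of 11310 genes were called. Without the cells with the highest doublet scores, Ephb2 stood at 0.308 against 1.99, from 1 and 9 UMIs. Ephb3 stood there at no UMI against 0.886, from 4 UMIs. Both genes then lay under the minimum of 20 UMIs, so no call could be made in that setting. Neither call was made with a limit of 5% mitochondrial UMIs or after thinning to 5000 UMIs. Whether the counts reached the minimum in those settings is not given here. Ephb4 was 1.45-fold higher with PGE2, with intervals apart but under the limit of 1.5. The venous list summed to 481, 538, 536 and 836 CPM and the arterial list to 786, 615, 807 and 708 in endothelial cells. On the venous side alone Ephb4 stood at 53.8, 61.0, 75.3 and 84.9, with overlapping intervals in minoxidil and PGE2.

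The A-class ephrins and receptors form the other branch of the Eph family. In mesenchymal cells, where 23.9% of all genes tested were called between Tbx1neo2/neo2 carrier and Tbx1+/+ carrier, 2 of the 5 ephrin-A ligands were higher in the former, Efna3 (16.9 against 3.98 CPM) and Efna4 (54.5 against 31.6). Of 8 EphA receptors tested of 9 listed, 1 was higher and 4 lower. Epha5 was 8.59-fold higher (15.6 against 1.82), while Epha8 (1.63 against 10.6) and Epha6 (0.179 against 0.781) were lower. The median log2 ratio was 0.50 for the ephrin-A list, -0.47 for the EphA list and 0.11 for the 8 genes described here, beside 0.01 over all genes tested.

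With minoxidil, where 23.9% of all genes were called in mesenchymal cells, Efna3 (3.73) and Efna4 (27.6) were called lower than in Tbx1neo2/neo2 carrier, and of the EphA receptors 4 were higher, Epha8 (8.13) and Epha6 (0.826) among them, and Epha5 was lower (1.56). With PGE2, where 23.7% of all genes were called, 4 of the 5 ephrin-A ligands were lower, Efna3 (4.05), Efna4 (21.3) and Efna2 (29.7 against 53.2) leading. Of the EphA receptors 2 were higher and 1 lower, with Epha8 at 6.22, Epha5 at 4.43 and Epha3 at 186 against 69.1. The medians were -0.53 and 0.34 with minoxidil and -0.84 and 0.15 with PGE2 for the ephrin-A and EphA lists.

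Of 24 signalling partners of these proteins, 7 were called in mesenchymal cells between Tbx1neo2/neo2 carrier and Tbx1+/+ carrier (4 higher, 3 lower), beside 23.9% of all genes. Tiam1, a Rac activator that binds Eph receptors, was at 23.9 against 9.82 CPM, Ngef (ephexin, bound by EphA4) at 0.348 against 0.0586, and Rgs3, which acts in reverse signalling of ephrin-B, at 25.2 against 40.5. With minoxidil 6 were called (4 higher, 2 lower), beside 23.9% of all genes, with Tiam1 at 9.08, Rgs3 at 41.4 and Ngef at 0.0306. With PGE2 7 were called (3 higher, 4 lower), beside 23.7%, led by Vav3 at 18.2 against 4.14, Arhgef15 at 0.213 against 0.706 and Grip2 at 0.895 against 0.295.

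In epithelial cells none of the ephrin-A ligands or 24 partners and 1 of 7 EphA receptors (Epha2, 0.738 against 1.64) was called between Tbx1neo2/neo2 carrier and Tbx1+/+ carrier, beside 8.37% of all genes. With minoxidil, beside 9.3% of all genes, Epha7 was lower (5.44 against 11.4), Epha2 higher (1.40) and Ngef higher (2.88 against 1.67). With PGE2, beside 9.47%, Efna5 (16.7 against 26.9), Efna4 (17.8 against 27.5), Epha7 (4.41) and Epha3 (6.25 against 9.94) were lower. The 8 mesenchymal markers stood at 293, 633, 103 and 119 CPM in epithelial cells of the 4 libraries, and their part in these differences was not tested. These lists were not compared without the cells with the highest doublet scores.

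In endothelial cells, Efna3 (2.49 against 0.645), Efna2 (9.94 against 4.73), Efna5 (16.9 against 8.49), Epha7 (11.8 against 4.51) and the partner Kalrn (12.6 against 5.70) were higher in Tbx1neo2/neo2 carrier than in Tbx1+/+ carrier, beside 7.6% of all genes called. With minoxidil (8.64% of all genes) Efna2 (2.10) and Efna4 (12.6 against 19.1) were lower, and with PGE2 (10.3%) Epha7 (2.70) and Tiam1 (7.29 against 17.2) were. The 8 mesenchymal markers summed to 239, 1118, 523 and 191 CPM in endothelial cells of the 4 libraries, and their part in these differences was not tested. In hematopoietic cells 3 ephrin-A ligands, 1 EphA receptor and 5 partners were higher in Tbx1neo2/neo2 carrier, Efna5 (7.71 against 2.45) and Itsn1 (11.3 against 4.24) among them, and 1 EphA receptor, Epha8 (0.0343 against 0.390), was lower, beside 13.6% of all genes called. With minoxidil 4, 2 and 5 members of the 3 lists were lower and none higher, beside 15.9% of all genes, and with PGE2 5, 4 and 6 were lower and 1 partner higher, beside 20.6%. The 8 mesenchymal markers in hematopoietic cells moved the same way, at 264, 612, 222 and 137 CPM, and their part in these counts was not tested.

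The genes whose levels over clusters followed the 8 genes most closely are given as a description, over 58 profiles of a cluster in a library that share libraries and depth. They were Plod2, Zfp354c and Ptprs for Efnb1 (Pearson r of log2 levels 0.94 to 0.95), Dennd5b, Lamb1 and Nckap1 for Efnb2 (0.95), and Adgrb2, Pcdh11x and Aplp1 for Efnb3 (0.93). They were Gap43, Hapln1 and Hecw2 for Ephb1 (0.87 to 0.88), Adam22, Angptl4 and Cd248 for Ephb2 (0.90 to 0.91), Cacna1h, Podxl2 and Cnih2 for Ephb3 (0.96 to 0.97) and Tjp1, Mpzl1 and Epn2 for Ephb4 (0.95 to 0.96). Ephb6 reached 20 CPM in no profile, and its nearest genes were Lrrc1, Zfp219 and Bex1 (0.87 to 0.91).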

How the data were processed

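The 4 libraries were made with a 10x protocol and processed by the authors with Cell Ranger 5.0.1 (mouse mm10 assembly) and Seurat, per the labels. The deposited values are raw UMI counts per gene and cell, with no replicate library. Whether intronic reads were counted is not given in the sources used here. A cell needed 200 genes or more, and no more than 10% of its UMIs from mitochondrial genes. Libraries were integrated on 2000 variable genes and 30 dimensions in Seurat 5.3.0 (R 4.3.3), clustered at resolution 0.3, and named from marker lists. No cell was removed as a doublet in the values given. Counts were summed per class or cluster and library and scaled to the class total (CPM). Intervals were exact Poisson for levels and Clopper-Pearson for shares (scipy 1.17.1), at 95%. The call rule was also run on simulated counts with Poisson error alone and no spread between libraries. Results of that run are not given here. Named genes are the 8 members, up to 3 called genes per list with the largest log2 ratio, and the 3 nearest genes by correlation of log2(CPM + 5) among genes of at least 20 CPM. Arterial and venous lists served for the endothelial split. The members and lists were chosen with earlier results of these data known. No table of proteins was used here.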

Additional observations from a re-analysis of the deposited data

Results flagged for a closer look

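Ephb2 with PGE2 against Tbx1neo2/neo2 carrier differed in direction between classes. Its log2 ratio was 0.60 in mesenchymal, -0.83 in epithelial and -2.94 in endothelial cells, the last from 3 and 40 UMIs. Without the cells with the highest doublet scores the epithelial call was not made. Ephb2 in endothelial cells then had 1 and 9 UMIs, under the minimum of 20, so no call could be made. The 8 mesenchymal markers were also lower with PGE2, at 119 against 633 CPM in epithelial and 191 against 1118 in endothelial cells, and their part was not tested. With 1 library for each condition the difference between classes was not tested.

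Between Tbx1neo2/neo2 carrier and Tbx1+/+ carrier, 4 genes were called in opposite directions in different mesenchymal clusters. The share of all genes called in this way was not counted, so the 4 cannot be read as a trait of these genes. The log2 ratio of Efnb1 was -0.93 in cluster 2 and 0.61 in cluster 5. That of Efnb2 was 0.60 in cluster 1 but lower in 3 other clusters, at -0.99 (cluster 2), -0.78 (cluster 14) and -1.14 (cluster 15). That of Efnb3 was -0.82 in cluster 1, 1.05 in cluster 5 and -0.89 in cluster 14. That of Ephb1 was -1.36 in cluster 2 and 3.07 in cluster 5. Of the Tbx1neo2/neo2 carrier cells, 2316 of 2433 in cluster 1, 1972 of 2084 in cluster 2, 996 of 1225 in cluster 5, 197 of 197 in cluster 15 and none in cluster 14 were of the clusters that this library filled almost alone before integration. These differences between clusters were not tested.

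Cluster 6, which no marker list named and in which the comparisons above take no part, held 1931 cells of Tbx1+/+ carrier and 70, 19 and 30 of the other libraries. Against Tbx1+/+ carrier, its Tbx1neo2/neo2 carrier cells had log2 ratios of 1.34 for Efnb1, 1.42 for Efnb3, 2.58 for Ephb1, 1.38 for Ephb3 and 1.04 for Ephb4. The minoxidil cells had 0.71 for Ephb4. The 8 mesenchymal markers moved with them, at 865 CPM in Tbx1+/+ carrier, 3027 in Tbx1neo2/neo2 carrier and 1299 in minoxidil, with none at 0, and their part was not tested. These values rest on few cells and were not tested.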

How the results depend on the processing

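No paired analysis was possible because each condition had 1 library, and for the same reason no library could be left out. Counts of members called that moved by over 1.5 times are given by setting. Apart from the shared clusters, the share of all genes called was not counted for these settings. The counts can therefore not be read as a trait of the 8 genes. Thinning leaves fewer UMIs of every gene under the same minimum of 20. Here the genotype is short for the comparison of the carrier libraries. Thinning cells to 5000 UMIs gave 0 in endothelial cells for both PGE2 and the genotype (2 each), 1 and 0 in epithelial cells for PGE2 and minoxidil (3 each), and 1, 0 and 1 in hematopoietic cells for PGE2 (5), the genotype (3) and minoxidil (6). Leaving out the 6% of cells with the highest doublet scores gave 0 for both endothelial counts and both epithelial counts, and 3 for minoxidil in hematopoietic cells. In both endothelial counts Ephb2 and Ephb3 then lay under the minimum of 20 UMIs, as did Ephb1 with minoxidil in hematopoietic cells, so these could not be called. A limit of 5% mitochondrial UMIs gave 0 for PGE2 and 1 for the genotype in endothelial cells, 1 for the genotype in epithelial cells (0), 3 for minoxidil in hematopoietic cells and 2 for minoxidil in mesenchymal cells (1). Averaging over cells gave 1 for PGE2, 0 for the genotype and 1 for minoxidil (0) in endothelial cells, 1 for the genotype in hematopoietic cells and 2 for minoxidil in mesenchymal cells. A 2-fold limit gave 1 for the genotype in endothelial cells, 1 for each drug in epithelial cells and 1 for PGE2 in mesenchymal cells (4). Weighting mesenchymal clusters by their Tbx1+/+ carrier shares gave 2 for PGE2 and 0 for the genotype (1), and with minoxidil it called Ephb2 in place of Ephb1. Using only shared mesenchymal clusters, chosen after seeing the data, gave 0 for PGE2. The direction reversed for Efnb1 in endothelial cells between genotypes without high doublet scores (log2 ratio -0.54). In the shared clusters, the sign changed for Ephb1 in mesenchymal cells between genotypes (-0.0887, interval -0.59 to 0.38) and with minoxidil (0.0510, interval -0.45 to 0.57). Both Ephb1 intervals spanned no change, so no opposite difference was seen. The cause was not tested. Endothelial values rest on 99 to 243 cells a library, which limits the genes seen at few UMIs.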
